A study of Rattus norvegicus with 24 samples.

Results

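*Isl1*, *Gal*, *Calcr* and *Lhx9* are 4 of the 32883 genes whose reads were counted in the rostral posterior hypothalamic (rPH) region of rats exposed to loud noise. They were grouped as hypothalamic identity genes, a name that was not tested. *Lhx9* followed markers of dorsal thalamus, as given below, while orexin neuron markers other than *Lhx9* itself could not be read. All 4 were taken from the study's list of genes that differed between treatment groups. *Isl1* (ENSRNOG00000012556) and *Lhx9* (ENSRNOG00000010357) are in that list for RS7 against both C and AS, and *Gal* (ENSRNOG00000015156) and *Calcr* (ENSRNOG00000010053) for RS7 against C alone. Differences in those comparisons chose the genes and are therefore given as descriptions, without a test. All 4 genes passed the filter on low counts, which 16202 genes passed. Chromosome positions are not given with the counts.

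The rats were young adult male Sprague-Dawley rats (Envigo), all placed daily in sound-attenuating chambers. The C group heard background noise only and had 0 loud noise exposures. The AS, RS3 and RS7 groups had 1, 3 and 7 daily exposures to loud white noise, the last on the same day for every group, and tissue was taken a day later. Each group had 6 rats. The study retained 5 per group, and the animal left out of each group was identified here: number 20 in the C group, 18 in AS, 8 in RS3 and 1 in RS7. The 4 were left out by the study because 1 library had the fewest reads and 3 held many adapter sequences with high GC content. Levels are given as CPM, in which the count of a gene is divided by the TMM-adjusted library size, and values are mean ± SD over the 5 retained rats of a group.

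*Isl1* encodes a LIM homeodomain transcription factor that specifies several classes of hypothalamic neurons. *Lhx9* encodes a factor of the same family, used in orexin neurons and in developing thalamus. *Gal* encodes galanin, a neuropeptide that acts on G protein-coupled receptors, and *Calcr* encodes the calcitonin receptor, which with accessory proteins also binds amylin. Each is expressed in only some neurons, and in tissue blocks of this kind fewer cells of a type and less RNA per cell cannot be told apart.

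Between 8087697 and 16947298 reads were counted on genes in each retained rat. *Isl1* rested on 21 to 189 reads per rat, *Gal* on 29 to 211, *Calcr* on 96 to 591 and *Lhx9* on 34 to 260. The tissue label was checked with marker lists, of which only the genes with an identifier could be read. Markers of dorsal thalamus were measured in every rat, and the summed level of the 7 rows with an identifier (6 of 10 genes) ranged from 1233 to 1621 CPM in the C group, 1271 to 1743 in the AS group, 1299.9 to 1967 in the RS3 group and 1817 to 2298 in the RS7 group. Summed GABAergic markers (6 of 7 genes) ranged from 598 to 1015 CPM in the C group, 698 to 999 in AS, 500.2 to 688 in RS3 and 485 to 654 in RS7. Summed markers of paraventricular neurosecretory neurons (4 of 6 genes: *Avp*, *Oxt*, *Trh* and *Sim1*) ranged from 22.4 to 287 CPM in C, 37.8 to 325 in AS, 13.1 to 145 in RS3 and 7.66 to 35.9 in RS7. Astrocyte markers (3 of 4 genes) ranged from 1751 to 2295 CPM over all groups. All these markers come from the study's list on these samples, so their directions are not independent evidence, and their part in the results below was not tested.

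The mean level of *Isl1* was lowest in RS7, and by the edgeR fit the gene was 2.39 times lower in RS7 than in C and 2.70 times lower than in AS. It had 11.9, 8.25, 12.8, 4.70 and 12.7 CPM in C rats 19, 21, 22, 23 and 24, and 9.09, 15.4, 12.8, 7.07 and 12.2 CPM in AS rats 13 to 17. RS3 rats 7, 9, 10, 11 and 12 had 11.1, 3.44, 6.89, 3.57 and 7.97 CPM, and RS7 rats 2 to 6 had 5.36, 2.74, 4.78, 5.93 and 1.64 CPM. C rat 23 lay inside the RS7 range, and every AS rat lay above every RS7 rat. The means were 10.1 ± 3.53 in C, 11.3 ± 3.27 in AS, 6.601 ± 3.23 in RS3 and 4.09 ± 1.82 in RS7. The log2 fold change was -1.26 (SE 0.378) for C versus RS7 and -1.43 (SE 0.369) for AS versus RS7. The AS and RS7 groups did not overlap, with RS7 lower, as was the case for 1.69% of all genes tested, and since this contrast chose the gene nothing is read from it. In the remaining comparisons no difference passed the test. The log2 fold change was -0.64 in C versus RS3 (edgeR quasi-likelihood, adjusted p = 0.385), -0.82 in AS versus RS3 (edgeR adjusted p = 0.9998), -0.61 in RS3 versus RS7 (edgeR adjusted p = 0.714) and 0.17 in C versus AS (edgeR adjusted p = 0.895). The means ranked AS, C, RS3 and RS7 from high to low, and no neighbours in that order differed by this test. These comparisons share rats with the contrasts that chose the gene. In each of them edgeR called 0 of the 16202 genes (0%), while 1625 genes in C versus AS, 2639 in C versus RS3, 747 in AS versus RS3 and 1218 in RS3 versus RS7 had an unadjusted p under 0.05. DESeq2 called 38 genes in C versus RS3, 1 in AS versus RS3 and 0 in the others, and limma-voom called 0 in each.

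By the edgeR fit *Gal* was 2.27 times lower in RS7 than in C, and the means of AS and RS3 lay between. The C rats had 12.1, 14.8, 19.0, 8.73 and 11.0 CPM, in the rat order given above, and the AS rats 6.98, 14.5, 8.39, 12.7 and 14.9 CPM. The RS3 rats had 10.9, 3.74, 12.9, 8.75 and 9.26 CPM and the RS7 rats 5.78, 6.03, 10.3, 3.72 and 2.27 CPM. RS7 rat 4 lay above C rat 23, and 3 of the 5 RS3 rats were within the RS7 range. The means were 13.1 ± 3.92, 11.5 ± 3.61, 9.11 ± 3.40 and 5.62 ± 3.04 CPM in C, AS, RS3 and RS7, and the C versus RS7 log2 fold change was -1.18 (SE 0.366). AS versus RS7 gave -1.02 (95% interval -1.79 to -0.25, edgeR adjusted p = 0.163), with the RS7 rat lower in 23 of 25 pairs of rats. This comparison, like the others with C or RS7, shares rats with the contrast that chose *Gal*. Its values are therefore not independent of that choice, and the study's list for AS versus RS7 did not hold the gene. The background in that comparison was 1.67% of genes called. The values in C versus RS3 (-0.52, edgeR adjusted p = 0.474), RS3 versus RS7 (-0.67, edgeR adjusted p = 0.684), AS versus RS3 (-0.35, edgeR adjusted p = 0.9998) and C versus AS (-0.16, edgeR adjusted p = 0.906) did not pass either, and in these comparisons edgeR called none of the 16202 genes, as given for *Isl1*.

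By the edgeR fit *Calcr* was 2.31 times lower in RS7 than in C. The means of the 4 groups ranked as for *Gal*, with 45.6, 40.2, 39.6, 27.9 and 43.6 CPM in the C rats and 23.6, 37.9, 34.6, 37.7 and 41.9 CPM in the AS rats. The RS3 rats had 40.5, 13.5, 33.1, 32.97 and 24.9 CPM and the RS7 rats 17.9, 19.1, 30.1, 6.06 and 11.7 CPM. C rat 23, AS rat 13 and RS3 rat 9 were the lowest of their groups, and RS7 rat 4, the highest of its own, was above C rat 23 and AS rat 13. The means were 39.4 ± 6.88, 35.1 ± 6.97, 29.0 ± 10.3 and 17.0 ± 9.00 CPM in C, AS, RS3 and RS7, with a C versus RS7 log2 fold change of -1.21 (SE 0.334). AS versus RS7 gave -1.05 (95% interval -1.75 to -0.34, edgeR adjusted p = 0.121), with the RS7 rat lower in 24 of 25 pairs. This comparison, like the others with C or RS7, shares rats with the contrast that chose *Calcr*. Its values are therefore not independent of that choice, and the study's list for AS versus RS7 did not hold the gene. Without RS7 rat 4 the AS versus RS7 value was -1.37 (edgeR adjusted p = 0.0478), and limma-voom with sample quality weights gave -1.31 (adjusted p = 0.0302), so whether this comparison passed depended on RS7 rat 4 and on the tool. Of all genes, limma-voom called 4.76% in AS versus RS7 and edgeR 1.67% (270 genes, and 267 without RS7 rat 4). RS3 versus RS7 gave -0.75 (edgeR adjusted p = 0.654), C versus RS3 -0.46 (0.493), AS versus RS3 -0.29 (0.9998) and C versus AS -0.16 (0.896), all from edgeR. In each of these last comparisons edgeR called 0 of the 16202 genes. The RS3 versus RS7 value had an unadjusted edgeR p of 0.0398 (95% interval -1.47 to -0.04), where 7.52% of all genes had one under 0.05.

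*Lhx9* had the opposite order, with its highest mean in RS7, and by the edgeR fit it was 1.65 times as high in RS7 as in C. The C rats had 9.02, 4.52, 8.69, 7.45 and 8.13 CPM, and the AS rats 10.7, 8.40, 9.62, 5.82 and 6.47 CPM. The RS3 rats had 11.8, 10.4, 11.9, 6.03 and 9.75 CPM, and the RS7 rats 11.1, 11.9, 11.9, 16.4 and 12.0 CPM. Every RS7 rat lay above every C and AS rat, and 4 of the 5 RS7 values lay between 11.1 and 12.0. The means were 7.56 ± 1.80, 8.20 ± 2.06, 9.97 ± 2.38 and 12.7 ± 2.12 CPM in C, AS, RS3 and RS7. The log2 fold change was 0.72 (SE 0.187) for C versus RS7 and 0.63 (SE 0.183) for AS versus RS7. Groups without overlap, higher in RS7, were found for 2.06% of all genes against C and 2.39% against AS, and both contrasts chose the gene. Among the others, C versus RS3 was 0.38 (edgeR adjusted p = 0.337), RS3 versus RS7 0.34 (edgeR adjusted p = 0.671), AS versus RS3 0.29 (edgeR adjusted p = 0.9998) and C versus AS 0.09 (edgeR adjusted p = 0.908). These comparisons share rats with the contrasts that chose *Lhx9*, and in each edgeR called 0 of the 16202 genes.

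**Figure D1:**
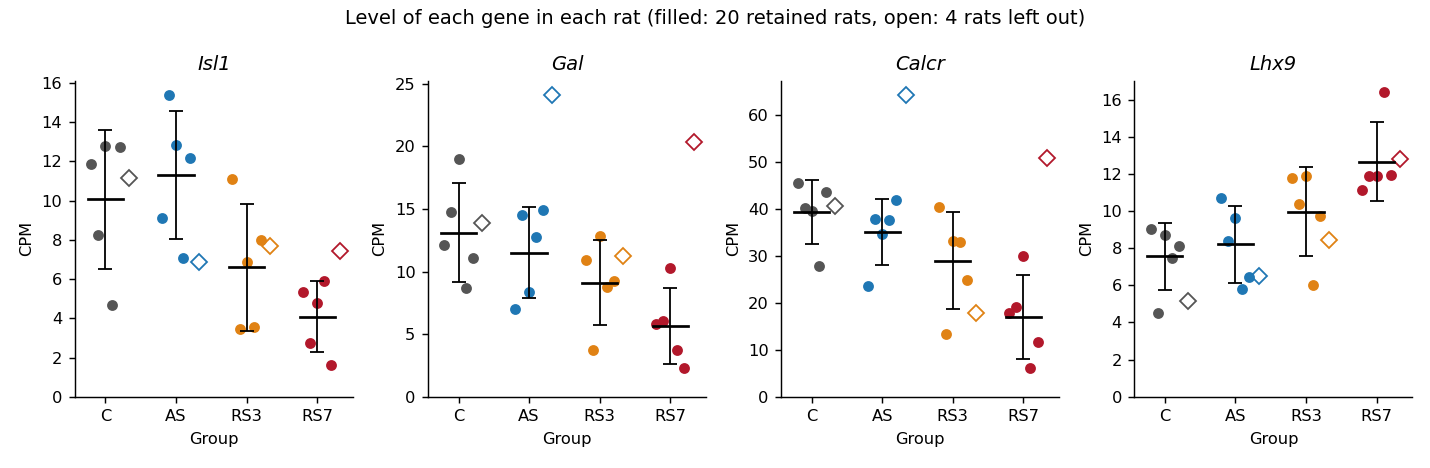
CPM of *Isl1*, *Gal*, *Calcr* and *Lhx9* (y axis) in each rat of the 4 groups. Filled points are the 20 retained rats, lines and bars their mean ± SD, and open diamonds the rat left out of each group, whose CPM were scaled with all 24 rats. The left-out AS and RS7 rats have the highest *Gal* and *Calcr* of any rat.

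**Figure D2:**
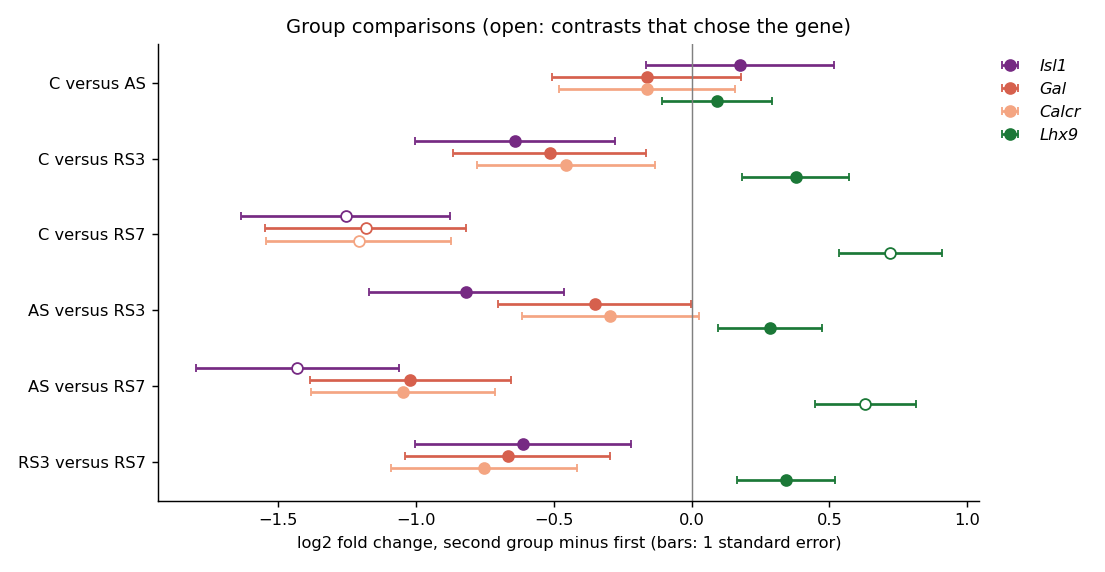
Log2 fold change (x axis, second group minus first) of the 4 genes in the 6 group comparisons (y axis), with bars of 1 SE. Open points are the contrasts that chose the gene. *Isl1*, *Gal* and *Calcr* are below 0 and *Lhx9* above 0 in the 5 comparisons other than C versus AS.

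The rats that the study left out were not used to choose the genes, and give 1 value per group, with no test. *Isl1* had 11.2 CPM in C rat 20, 6.89 in AS rat 18, 7.71 in RS3 rat 8 and 7.44 in RS7 rat 1, the last above all retained RS7 rats. *Gal* had 13.9, 24.1, 11.3 and 20.3 CPM and *Calcr* 40.7, 64.3, 17.8 and 50.8 CPM in the same rats. RS7 rat 1 was thus above every retained rat of every group for both genes, and AS rat 18 was higher still. AS rat 18 was the shallowest library, with 4744531 reads counted, and its *Gal* value rested on 63 reads, while RS7 rat 1 had 14299345 reads and 213 on *Gal*. Both were among the libraries that the study left out for low quality, so the depth of RS7 rat 1 does not make its values sound. The study does not name the reason for each rat. By counted reads AS rat 18 is the likely library with the fewest reads. That would place RS7 rat 1 among those with many adapter sequences and high GC content. *Lhx9* had 5.15, 6.51, 8.42 and 12.8 CPM, with RS7 rat 1 inside the range of the retained RS7 rats. When these 4 rats were added back, the C versus RS7 log2 fold change of *Gal* became -0.72 and that of *Calcr* -0.81, while that of *Isl1* was -1.13 and that of *Lhx9* 0.81.

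**Figure D3:**
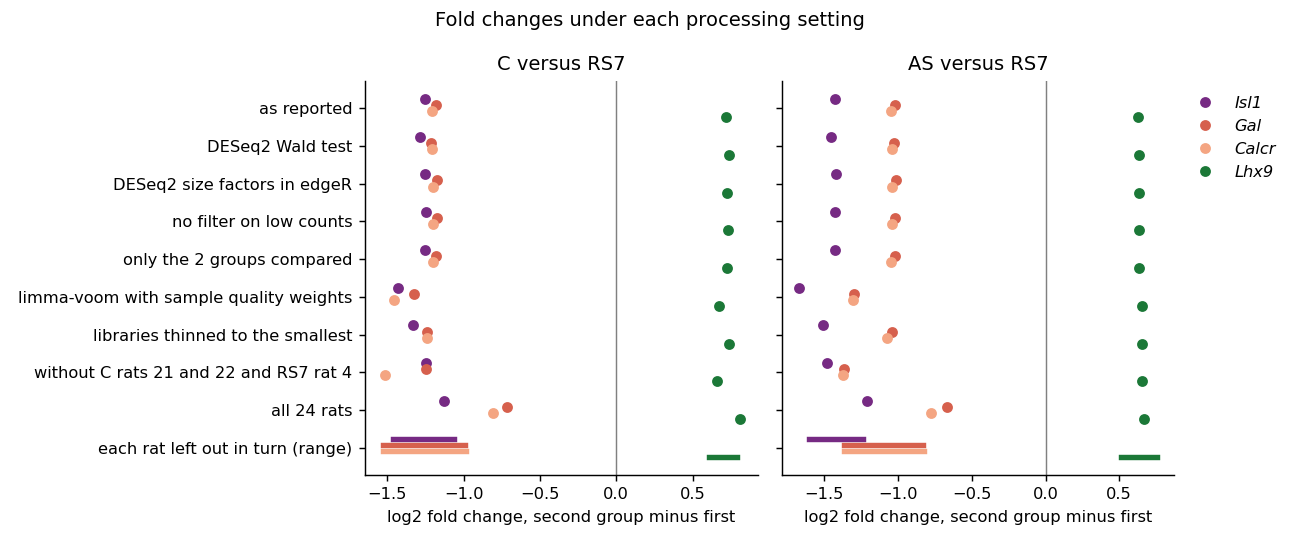
Log2 fold change (x axis) of the 4 genes, RS7 against C and against AS, under each processing setting (y axis), and as a range over leaving out each of 20 rats. *Gal* and *Calcr* come closest to 0 when all 24 rats are used.

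Within groups, *Isl1*, *Gal* and *Calcr* were among the most variable genes of the table. Their biological coefficient of variation, estimated by edgeR, was 39.6%, 38.5% and 36.2%, which put them at the 99.3, 99.3 and 99.1 percentile of all genes by dispersion. *Lhx9* had 18.8% and the 93.1 percentile. By the plain coefficient of variation within groups the percentiles were 97.8, 97.5, 94.5 and 85.9. Among genes within 0.5 log2 CPM of each gene's own level, the dispersion percentiles were 99.7, 99.7, 99.7 and 96.3.

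The variation within groups was compared between genes with log2 CPM minus the group mean in the 20 rats. *Gal* and *Calcr* deviated together (r = 0.786, permutation p = 0.00159, adjusted over 6 pairs 0.00954, and rho = 0.759, permutation p = 0.00037, adjusted 0.00222), and r was 0.754 without the 2 rats farthest from the median. Leaving out RS3 rat 9 gave r = 0.71, which did not pass (permutation p adjusted 0.0858). *Isl1* and *Gal* gave r = 0.554 (permutation p = 0.0307, adjusted 0.092, and rho = 0.415, permutation p adjusted 0.279), and r was 0.366 without the 2 rats farthest from the median. *Isl1* and *Calcr* gave r = 0.302 (permutation p adjusted 0.359, rho = 0.244). Without RS7 rat 5 both pairs passed, each with r = 0.65 (permutation p adjusted 0.0268). *Lhx9* gave r = 0.428 and rho = 0.358 with *Isl1* (permutation p adjusted 0.155 and 0.279), r = -0.21 and rho = -0.24 with *Gal* (permutation p adjusted 0.372 for both) and r = -0.30 and rho = -0.29 with *Calcr* (permutation p adjusted 0.264 and 0.339).

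**Figure D4:**
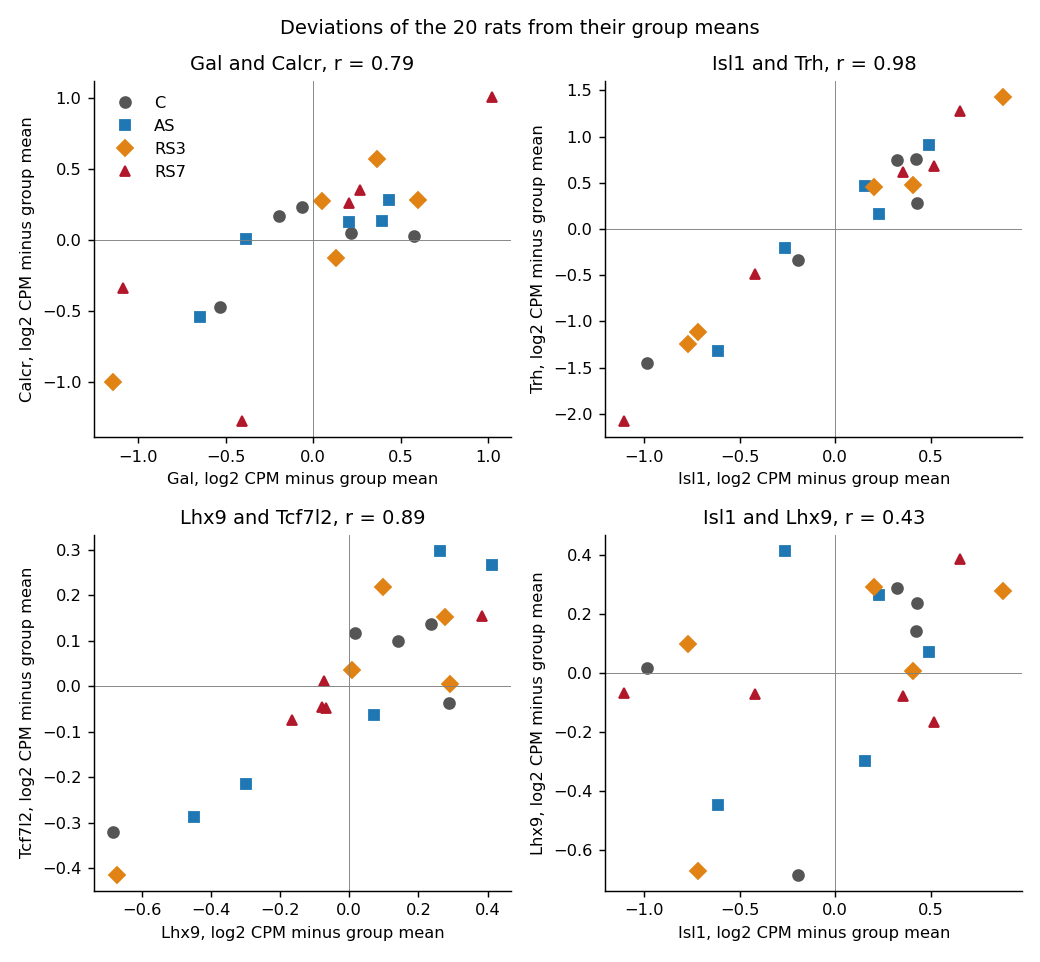
Deviation of each of the 20 retained rats from its group mean, in log2 CPM on both axes, for *Gal* and *Calcr*, *Isl1* and *Trh*, *Lhx9* and *Tcf7l2*, and *Isl1* and *Lhx9*. Colours and symbols mark the groups. *Isl1* and *Trh* lie nearest to a line (r = 0.98).

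The sequences upstream of *Gal* and *Calcr* are shown because these genes moved together inside the groups. *Calcr* was not the gene closest to *Gal* there, at rank 52 of all genes by r within groups. RefSeq (build GRCr8) gave promoters for *Isl1*, *Gal* and *Calcr*, 3 of the 4 genes, and the 250 bases before the annotated start are printed, 5′ to 3′ on the minus strand. Capitals mark TGACGCG and TATAAA, both strands searched. The first was noticed after the sequences had been read and contains TGACG, part of the cAMP response element, and the second is the TATA box.
Gal, chr1:210084573-210084822: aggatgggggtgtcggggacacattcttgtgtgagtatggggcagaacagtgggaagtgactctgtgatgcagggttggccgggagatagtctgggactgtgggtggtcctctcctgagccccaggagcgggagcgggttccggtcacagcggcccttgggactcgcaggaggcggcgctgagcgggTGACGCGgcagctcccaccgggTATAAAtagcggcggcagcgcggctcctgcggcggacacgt
Calcr, chr4:32691076-32691325: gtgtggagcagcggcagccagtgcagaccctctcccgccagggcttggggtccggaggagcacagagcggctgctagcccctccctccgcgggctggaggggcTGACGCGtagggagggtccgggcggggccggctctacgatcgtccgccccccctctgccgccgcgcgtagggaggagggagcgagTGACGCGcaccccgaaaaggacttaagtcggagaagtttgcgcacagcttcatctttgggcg
TGACGCG began 63 bases before the start of *Gal*, and 147 and 62 bases before that of *Calcr*. It was held by 484 of 33469 RefSeq promoters of this length (1.45%), TGACG by 18.2%, and TATAAA, found in *Gal* and not in *Calcr*, by 12.9%. TAATTA, a motif that homeodomain factors bind, was in neither sequence and in 4.86% of promoters. A match is a description of the letters and not a site of binding.

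The genes most like each member were taken over the 20 rats, on log2 CPM, from 16201 others, and the 5 with a symbol and the highest r are named. Symbols exist only for 778 genes of the study's list, so each of the named genes was chosen on group differences, and r over all 20 rats carries the group differences of both genes. *Trh*, thyrotropin-releasing hormone, ranked first for *Isl1* with r = 0.989, and r was 0.980 within groups, also the highest of all genes. *Avp* (vasopressin) followed with 0.949, then *Zbtb7c*, a zinc finger gene, with 0.946, *Oxt* (oxytocin) with 0.945, and *Kcnj4*, a potassium channel, with 0.906 at rank 11. The rats with low *Isl1* were also those with low *Trh*: C rat 23 had 13.4 CPM of *Trh*, against 29.4 to 62.8 CPM in the other C rats.

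For *Calcr* the closest gene was *Arhgap36* (r = 0.939), then *Pnma3* (0.932), *Nrp2*, a semaphorin coreceptor gene (0.922), *Rsph10b* (0.909) and *Rxrg*, a retinoid X receptor (0.907). For *Gal* they were *Pnma3* (0.899), *Arhgap36* (0.893), *Calcr* (0.888, rank 15), *Gaa*, a lysosomal glucosidase gene (0.881), and *Gpr165* (0.872, rank 26). Only *Arhgap36* and *Pnma3* were among the 5 of both *Calcr* and *Gal*, and *Calcr* itself was among the 5 of *Gal*. By r within groups *Arhgap36* ranked 8 for *Calcr* (0.873), *Pnma3* ranked 25 for *Gal* (0.814) and *Calcr* ranked 52 for *Gal* (0.786).

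*Lhx9* was most like genes other than these. *Tcf7l2* (ENSRNOG00000049232, 1 of 2 rows with this symbol), a Wnt pathway transcription factor of the thalamus, came first among genes with a symbol (r = 0.937, within groups 0.887), at rank 2 of all genes. *Reps2* (0.933), *Cx3cl1*, which encodes fractalkine (0.930), *Ntng1*, netrin-G1 (0.925), and *Syt7*, a synaptotagmin (0.925), followed. By r within groups *Tcf7l2* ranked 19 of all genes, behind *Ntng1* at 16 and *Reps2* at 18. *Tcf7l2* had 244 to 335 CPM in C rats and 406 to 476 CPM in RS7 rats, on the same scale as *Lhx9* but not corrected for gene length.

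These relations were also computed against the summed marker lists, after the data had been seen, in 16 relations of 4 genes with 4 lists, on deviations from the group mean. *Isl1* followed the paraventricular markers (r = 0.926, permutation p = 1e-05, the smallest the permutations can give, adjusted 0.00016, and rho = 0.872, permutation p = 2e-05, adjusted 0.00032), and r was 0.910 without the 2 rats farthest from the median. *Lhx9* followed the dorsal thalamus markers (r = 0.875, permutation p = 0.00031, adjusted 0.00248, and rho = 0.832, permutation p = 0.00046, adjusted 0.00368), with 0.794 without 2 rats. *Calcr* went against the thalamic markers (r = -0.54, permutation p = 0.0134, adjusted 0.0357, and rho = -0.54, permutation p = 0.0132, adjusted 0.0353), and r was -0.61 without 2 rats. That call was lost without C rat 23, AS rat 13, AS rat 17, RS3 rat 9, RS7 rat 4 or RS7 rat 5, with r from -0.55 to -0.45. Summed markers hold more abundant genes with more weight. The paraventricular list holds *Trh*, *Avp* and *Oxt*, named above as most like *Isl1*, and the thalamic list holds *Tcf7l2* and *Ntng1*, named as most like *Lhx9*, so both relations in part restate that search. Without those genes, *Lhx9* and the 4 thalamic markers left (*Lef1*, *Rora*, *Slc17a6* and *Plekhg1*) gave r = 0.846 (permutation p adjusted 0.00336, and rho = 0.798, permutation p adjusted 0.00448), with 0.749 without 2 rats. Of these 4, *Slc17a6* had the most weight, at a mean of 578 CPM in C against 257 for *Plekhg1*, the next. *Slc17a6* was also listed as a marker of glutamatergic neurons, so this relation need not be one with thalamus alone. *Isl1* and *Sim1*, the only paraventricular marker left, gave r = 0.391 (permutation p adjusted 0.189, and rho = 0.257, permutation p adjusted 0.405), which did not pass. *Isl1* and *Gal* had an r of 0.20 and -0.46 with the thalamic list, which did not pass. The relation of *Gal* passed without RS3 rat 11 (r = -0.54, permutation p adjusted 0.032) or RS7 rat 6 (r = -0.58, permutation p adjusted 0.0466). The orexin neuron markers *Hcrt* and *Pdyn* had no identifier, so *Lhx9* could not be compared with them. From which cells the reads of *Lhx9* came was not tested.

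**Figure D5:**
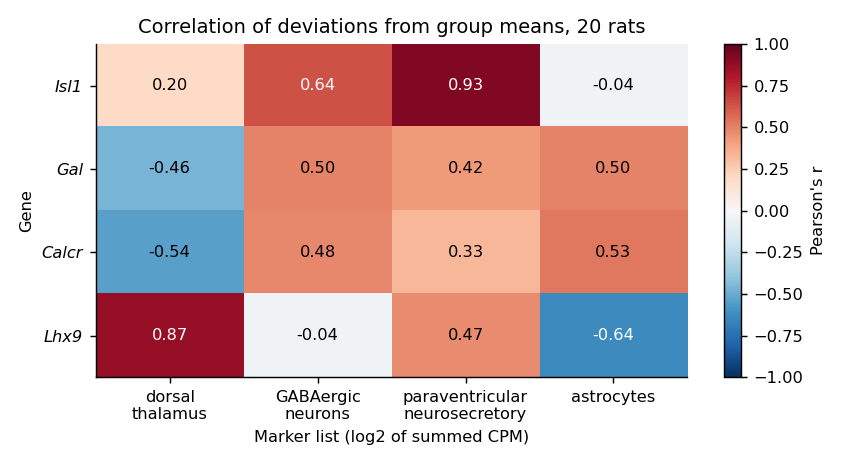
Pearson's r (colour and number) between deviations from the group mean of each gene (y axis) and of the summed marker lists (x axis) in the 20 retained rats. The highest values are *Isl1* with paraventricular markers (0.93) and *Lhx9* with thalamic markers (0.87). Both lists hold genes named as most like the member, without which r was 0.39 and 0.85.

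Other genes of the members' families were read from lists, of which few have identifiers: 1 of 6 in the galanin system and 1 of 9 in the calcitonin receptor system (each the member itself), 5 of 18 LIM homeodomain factors and cofactors, 5 of 24 neuropeptides, 8 of 30 hypothalamic transcription factors and 7 of 16 neuropeptide receptors. In C versus RS7, where edgeR called 0.148% of genes, 0 of the 18 listed genes other than the members were called by edgeR, although 17 had an unadjusted p under 0.05. Over all genes, 2896 of 16202 (17.9%) had an unadjusted edgeR p under 0.05 in that comparison. DESeq2 called 12 of the 18, against 2.92% of the 14360 genes to which it gave an adjusted p, and limma-voom 2, against 0.636% of 16202. The study chose these 18 on these samples, so the counts are not independent evidence. In AS versus RS7, with 1.67% called, *Oprm1*, the mu opioid receptor, was the 1 of these 18 genes that edgeR called, where DESeq2 called 10 (3.7% of 15338 genes) and limma-voom 8 (4.76% of 16202). It was at 9.64 ± 2.91 CPM in AS and 23.5 ± 2.49 in RS7 (log2 fold change 1.28, edgeR adjusted p = 0.00949). The 4 neuropeptides other than *Gal* (*Avp*, *Oxt*, *Trh* and *Penk*) had lower means in RS7 than in AS, at a median log2 fold change of -2.91 against -0.01 over all genes, and edgeR called none of them. The 3 LIM list genes other than *Isl1* and *Lhx9* were *Lmo1*, a LIM-only cofactor gene (0.19), *Lhx5*, another LIM homeodomain gene (-0.46), and *Lmo3* (-0.36). Again without the members, the 6 transcription factors had a median of -0.68 and the 6 receptors of -0.69, with 5 of 6 below 0 in each.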

How the data were processed

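The authors trimmed paired reads (Trimmomatic 0.36), mapped them to rn6 (HISAT2 2.0.5), counted them on Rnor_6.0 genes (featureCounts) and deposited raw counts for 24 rats; strandedness and the treatment of multiply mapped reads are not given in the sources used here. The retained rats were the 1 set of 1296 that gave the printed baseMean of all 808 genes listed by the study (relative tolerance 1e-07). Counts were tested here in R 4.3.3 with edgeR 4.0.16 (quasi-likelihood test, TMM, filterByExpr with a minimum count of 10, 4 groups in 1 fit, Benjamini-Hochberg adjustment, threshold 0.05), and log2 CPM used a prior count of 2. Alternatives were DESeq2 1.42.0, limma 3.58.1 (voom), other filters and rats. Correlations used permutations within groups, 100000 for the reported values. The steps were also run on simulated counts with known changes, whose outcome is not reported here. No batch of the libraries is given in the sources used here. The genes, marker lists and alternatives were chosen with earlier results of these data known, named genes by r as described, and symbols came from the study's list.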

Additional observations from a re-analysis of the deposited data

Results flagged for a closer look

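The RS7 value of *Lhx9* in rat 5 was 16.4 CPM, and its gap to the next rat was 0.845 of the range of the 5 RS7 rats, which were 11.1 to 16.4 CPM. This was 1 of 16 gene and group combinations tested, of which chance gives about 1 in 20. Rat 5 also had the lowest *Calcr* of all 20 retained rats (6.06 CPM) and the highest *Isl1* of the RS7 rats (5.93 CPM). Without rat 5, the *Lhx9* log2 fold change was 0.61 in C versus RS7 and 0.51 in AS versus RS7.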

How the results depend on the processing

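No paired analysis was possible because rat numbers are not shared between groups. The DESeq2 Wald test, DESeq2 size factors, no filter, the full set of 24 rats, a fit of the compared groups alone, limma-voom, thinning to 8087697 counts, leaving out C rats 21 and 22 with RS7 rat 4, and leaving out each rat kept the direction of every fold change outside C versus AS. In C versus AS the sign turned for *Isl1* without C rat 23 (-0.033), for *Gal* without C rats 21 and 22 and RS7 rat 4 (0.12) and without C rat 22 (0.0071), and for *Lhx9* without C rat 21 (-0.018) and AS rat 13 (-0.031). Over rats left out, C versus AS ranged from -0.033 to 0.31 for *Isl1*, from -0.29 to 0.0071 for *Gal* and from -0.031 to 0.20 for *Lhx9*. *Calcr* in AS versus RS7 passed under limma-voom (-1.31) and without RS7 rat 4 (-1.37), ranging from -1.37 to -0.82 over rats left out. All 24 rats gave -0.23 for *Gal* and -0.25 for *Calcr* in RS3 versus RS7, with -0.67 for *Gal* and -0.78 for *Calcr* in AS versus RS7. Over rats left out, the within-group r ranged from 0.71 to 0.87 for *Gal* with *Calcr*, from 0.41 to 0.65 for *Isl1* with *Gal* and from 0.17 to 0.65 for *Isl1* with *Calcr*. With marker lists, r for *Isl1* with astrocytes turned without C rats 19, 21 and 24 (0.00, 0.02, 0.05), RS3 rat 11 (0.02) and RS7 rat 5 (0.10; lowest -0.10), and for *Lhx9* with GABAergic markers without AS rats 13 and 17 (0.01, 0.01), RS3 rat 11 (0.067) and RS7 rat 2 (0.00; lowest -0.18). Of all genes, edgeR called 24 in C versus RS7, against 419 with DESeq2, 64 without a filter, 46 with 24 rats, 103 with limma-voom, 49 thinned, 0 without the 3 rats named, and 0 to 560 over rats left out (560 without RS7 rat 4, 241 without C rat 23). In AS versus RS7 it called 270, against 568 (DESeq2), 129 (24 rats), 433 (2 groups only) and 772 (limma-voom), and 46 to 403 over rats left out (46, 52 and 92 without AS rats 17, 14 and 16; 81, 97 and 83 without RS7 rats 3, 5 and 6). In C versus RS3 it called 0, DESeq2 38, and edgeR 17 without C rat 23; in AS versus RS3 it called 0 and DESeq2 1. Leaving out rats or the most alike marker genes in the correlations and counting calls after thinning were chosen after seeing the data. The cause was not tested.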

Other observations

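Within groups, *Isl1* also varied with the summed GABAergic markers (r = 0.637, permutation p = 0.00518, adjusted over 16 relations 0.0207, and rho = 0.580, permutation p = 0.0108, adjusted 0.0344), and r was 0.463 without the 2 rats farthest from the median. *Lhx9* varied inversely with the astrocyte markers (r = -0.64, permutation p = 0.00432, adjusted 0.0207, and rho = -0.60, permutation p = 0.00799, adjusted 0.032), and r was -0.52 without 2 rats. These calls were lost without C rat 23 or RS3 rat 9 (0.52 and 0.59) for *Isl1*, and without C rat 21 or RS7 rat 5 (-0.46 and -0.59) for *Lhx9*. Of the 16 relations, 9 passed for r. The other 4 that passed joined *Gal* and *Calcr* to the GABAergic markers (r = 0.496 and 0.483, permutation p adjusted 0.049 and 0.046) and to the astrocyte markers (r = 0.4996 and 0.531, permutation p adjusted 0.0478 and 0.034), and leaving out single rats ended the call for 15, 12, 15 and 5 of the 20 rats. By rank, rho was 0.423 and 0.424 with the GABAergic markers (permutation p adjusted 0.121 and 0.11) and 0.624 and 0.463 with the astrocyte markers (permutation p adjusted 0.0281 and 0.07), so that 3 of the 4 did not pass. *Calcr* and the paraventricular markers passed without RS7 rat 5 alone (r = 0.584, permutation p adjusted 0.0467). Among the marker genes, *Rora* and *Slc1a2* were higher and *Gad1* lower in RS7 than in AS by edgeR (adjusted p = 0.0117, 0.00949 and 0.0128), where 1.67% of all genes were called. All marker genes read here come from the study's list on these same rats, so these calls are not independent evidence. The other astrocyte markers did not pass, with log2 fold changes of -0.13 for *Slc1a3* and 0.04 for *Aqp4*.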
